A study of Mus musculus with 12 samples.

Results

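The cyclin-dependent kinase (CDK) inhibitors are small proteins that bind CDKs or CDK-cyclin complexes and hold cells in the G1 phase. All 7 mouse genes of this kind (*Cdkn1a*, *Cdkn1b*, *Cdkn1c*, *Cdkn2a*, *Cdkn2b*, *Cdkn2c* and *Cdkn2d*) were among the 770 genes of the nCounter PanCancer Pathways panel for mouse, and all were taken by their symbols. Expression was measured in *RBS* lesions (n = 5), control eyes (n = 4) and Shh-MBs (n = 3), with each sample taken from a different animal. *RBS* lesions came from *Rax-creERT2::Ctnnb1(ex3)Fl/+SmoM2Fl/+* embryos at E18.5 after tamoxifen at E8.5. In these embryos Cre is driven by the *Rax* promoter in retinal precursor cells, removal of the floxed *Ctnnb1* exon stabilizes beta-Catenin, and SmoM2 is a constantly active Smoothened. Control eyes came from E18.5 embryos with both floxed alleles and no Cre driver (*Ctnnb1(ex3)Fl/+SmoM2Fl/+*). Shh-MBs were tumors of the cerebellum that *hGFAP-cre::SmoM2Fl/+* mice had at an age of 14 days, in which the human *GFAP* promoter drives Cre in neural progenitors and no *Ctnnb1* allele is altered. The labels give tamoxifen for *RBS* lesions only, so whether the control eyes were exposed is not known from them. Shh-MBs thus differ from the eyes in tissue, age, Cre driver and alleles at once, and from *RBS* lesions also in tamoxifen. These cannot be told apart. RNA was extracted from whole fresh frozen tissue, in which fewer cells of a type and less RNA per cell cannot be told apart.

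The inhibitors form 2 families. The Cip/Kip proteins p21 (*Cdkn1a*), p27 (*Cdkn1b*) and p57 (*Cdkn1c*) bind cyclin-CDK complexes of several kinds, above all those with CDK2. The INK4 proteins p16 (*Cdkn2a*), p15 (*Cdkn2b*), p18 (*Cdkn2c*) and p19Ink4d (*Cdkn2d*) bind only CDK4 and CDK6 and keep them from D-type cyclins. Both arms leave the retinoblastoma protein unphosphorylated, so that it holds back E2F factors and the genes of DNA replication. In the developing retina, p27 and p57 are known for their part in the exit of progenitors from the cell cycle, and in cerebellar granule cell precursors p27 and p18 restrain Hedgehog-driven growth.

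By the RefSeq annotation of GRCm38.p6, *Cdkn1a* lies at chr17:29090979-29100722, *Cdkn1b* at chr6:134920401-134925525, *Cdkn1c* at chr7:143458339-143461059 and *Cdkn2d* at chr9:21288459-21291421. The other INK4 genes lie on chromosome 4. *Cdkn2a* (chr4:89274473-89294619) and *Cdkn2b* (chr4:89306289-89311032) are neighbors separated by 11669 bases, while *Cdkn2c* (chr4:109660876-109666756) stands apart from them. *Cdkn2a* has 2 curated transcripts, and which of them the panel probe counts is not given in the sources used here.

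Sequences before the start sites are shown for *Cdkn2b* and *Cdkn2c*, because these were the members whose signal in *RBS* lesions lay wholly above (*Cdkn2b*) or wholly below (*Cdkn2c*) that in control eyes. Each is the stretch of 150 bases that ends just before the RefSeq start site, read on the minus strand, at chr4:89311033-89311182 for *Cdkn2b* and at chr4:109666757-109666906 for *Cdkn2c*. Capitals mark GC boxes (GGGCGG on either strand).
Cdkn2b: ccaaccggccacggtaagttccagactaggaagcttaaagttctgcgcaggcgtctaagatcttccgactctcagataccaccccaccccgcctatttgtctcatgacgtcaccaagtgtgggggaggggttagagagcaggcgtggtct
Cdkn2c: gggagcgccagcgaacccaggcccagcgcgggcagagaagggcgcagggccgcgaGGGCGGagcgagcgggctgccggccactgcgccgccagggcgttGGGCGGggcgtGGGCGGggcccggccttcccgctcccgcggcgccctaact
The *Cdkn2c* stretch was 81.3% G and C and that of *Cdkn2b* 56.0%. Over the full RefSeq windows, from 250 bases before to 50 bases after a start, this first *Cdkn2c* start had 4 GC boxes and *Cdkn2b* had 1, which begins 4 bases after the start. Among 32851 mouse windows of this length, 35.66% held at least 1 GC box and 5.49% held 4 or more. The *Cdkn2d* window held 5, but its start lies inside the annotated span of the gene, so that an upstream start may exist that this window does not describe. Of the 7 genes, 6 had a window in the table, with 9 windows between them. Searched on both strands, none of the 9 held the TCF/LEF letters CTTTGA (in 16% of all windows) or the GLI letters GACCACCCA (0.25%). The E2F letters TTTCCCGC, TTTCGCGC, TTTGCCGC and TTTGGCGC are found in 2.26% of all windows and here in the first *Cdkn2a* window, and the E-box CACGTG (7.15%) was found in the second *Cdkn2c* window. Such matches describe the sequence and were not tested for any function.

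Values are the deposited signal, a count of RNA molecules corrected for background and scaled to reference genes, on a linear scale on which genes cannot be compared with each other. Depth was 335348 to 716960 counts above background per sample, lowest in *RBS* lesion 1. Of the 7 genes, 5 had a mean signal of at least 20 over the 12 samples, whereas *Cdkn2b* (17.3) and *Cdkn2a* (2.36) were below that limit. None of 16 markers of retina, lens and pigment epithelium is on the panel, so the labelled eye tissue could not be checked against its defining genes. Of 8 genes listed for cerebellar granule precursors, 3 were on the panel (*Zic2*, *Gli1* and *Mycn*). Their summed signal was 4364 to 5234 in Shh-MBs, 1390 to 1879 in control eyes and 982 to 1232 in *RBS* lesions. *Mycn* alone had means of 3617, 1282 and 701 in these groups. The sum thus mostly follows *Mycn* and does not check the tissue by itself.

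Differences are given as log2 of the signal plus 1, with the standard error (SE) and limma's *p*-value adjusted over all 770 genes, and genes are called below 0.05. Compared with control eyes, *RBS* lesions showed higher *Cdkn2b* and lower *Cdkn2c* and *Cdkn2d*, and the other 4 genes did not pass the test. The calls were therefore 1 of 7 higher and 2 of 7 lower, while 33.0% of all genes on the panel were called higher and 18.2% lower. Groups did not overlap for 2 of 7 inhibitors and for 43.4% of all genes. Compared with Shh-MBs, *RBS* lesions had higher *Cdkn1c* and *Cdkn2b* and lower *Cdkn1b* and *Cdkn2c*, so 2 of 7 were higher against 48.1% of all genes and 2 of 7 lower against 12.7%. Here 5 of 7 did not overlap, as did 59.9% of all genes. Shh-MBs had higher *Cdkn1b* and *Cdkn2c* and lower *Cdkn1c* than control eyes, 2 of 7 higher against 9.61% of all genes and 1 of 7 lower against 31.4%. In that comparison 3 of 7 did not overlap, and 48.2% of all genes. These tallies hold for the deposited scaling. With each of the 3 other scalings, *RBS* lesions had 1 inhibitor higher and 4 lower than Shh-MBs, and the number of all genes called lower grew from 98 to 319 of 770 when each sample was centred on its median, to 236 with quantile normalization and to 164 when scaled to the sum over all genes except the top 3 in abundance. For Shh-MBs against control eyes the genes called higher grew from 74 to 311, 223 and 160, with 3, 2 and 2 inhibitors among them. The comparisons share samples and are not independent of each other.

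**Figure D1:**
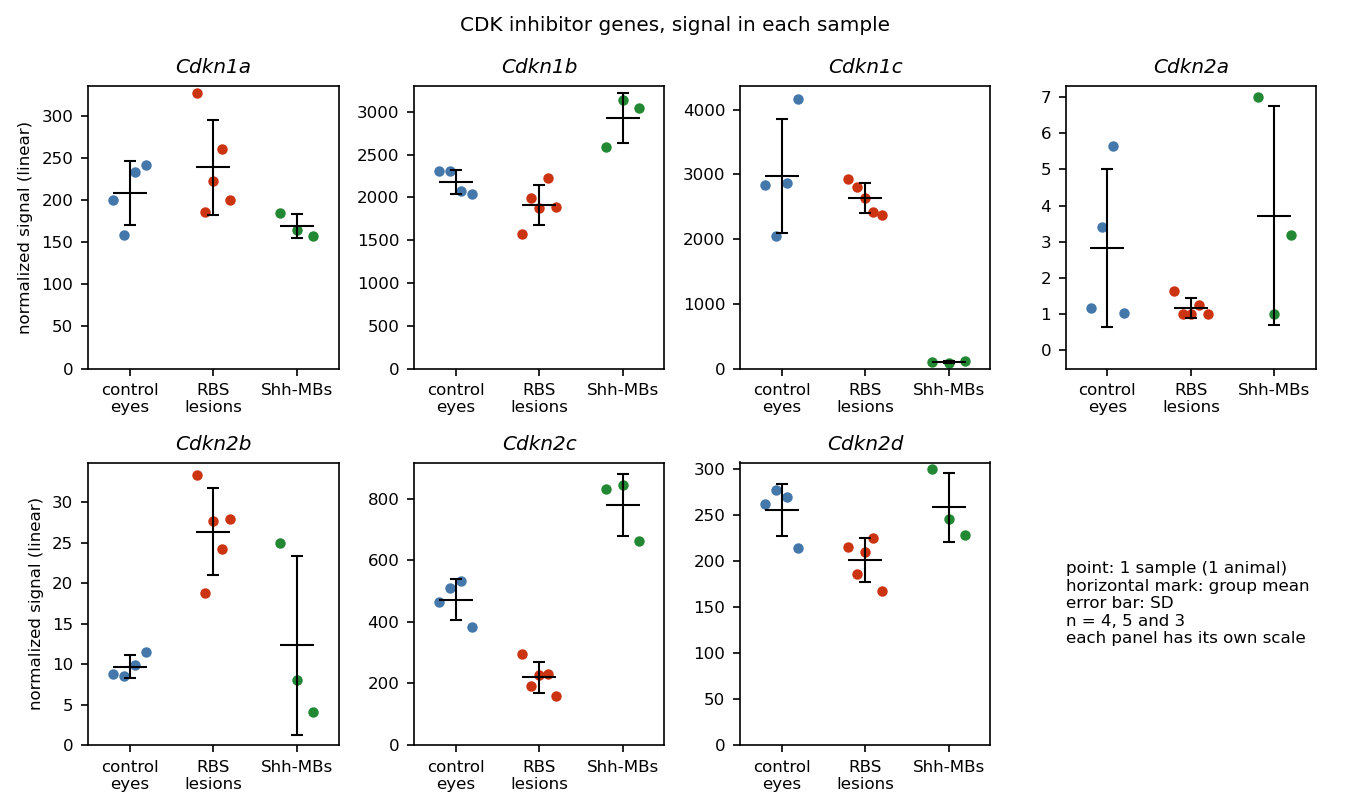
Normalized signal (linear axis) of the 7 CDK inhibitor genes in control eyes (n = 4), RBS lesions (n = 5) and Shh-MBs (n = 3). Points are samples, horizontal marks are means and error bars are SD. The 5 RBS lesions lie above all control eyes for Cdkn2b and below all other samples for Cdkn2c, and the 3 Shh-MBs lie far below the eyes for Cdkn1c.

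*Cdkn2c*, which encodes p18, had an order of levels with no overlap between any of the groups. Its signal in the control eyes was 465, 509, 531 and 382. In the *RBS* lesions it was 294, 192, 226, 229 and 160, and in the Shh-MBs 832, 845 and 663. The highest *RBS* lesion was thus below the lowest control eye, and the highest control eye below the lowest Shh-MB. The mean was 472 ± 65.8 (SD, n = 4) for control eyes, 220 ± 50.2 (SD, n = 5) for *RBS* lesions and 780 ± 101 (SD, n = 3) for Shh-MBs. In *RBS* lesions *Cdkn2c* was 2.17-fold lower than in control eyes (log2 difference -1.11, SE 0.180, adjusted *p* = 0.000802) and 3.58-fold lower than in Shh-MBs (log2 difference -1.84, SE 0.201, adjusted *p* = 0.000101). Shh-MBs exceeded control eyes 1.65-fold (log2 difference 0.73, SE 0.157, adjusted *p* = 0.00983), a call that was lost with a term for *Uty* (adjusted *p* = 0.173). The sex of the animals is not in the labels, and *Uty*, a gene of the Y chromosome, was above 100 in all Shh-MBs, *RBS* lesions 1 and 3 and control eye 3. With the term, a difference between Shh-MBs and control eyes thus rests on control eye 3 alone among the control eyes. Calls lost with it cannot be read as an effect of sex, which was not tested.

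*Cdkn2d* encodes p19Ink4d, the other INK4 protein commonly found in the developing nervous system. In the control eyes its signal was 262, 277, 269 and 214. The *RBS* lesions had 215, 186, 210, 225 and 168, and the Shh-MBs 300, 246 and 228. Control eye 4 was below *RBS* lesions 1 and 4, and the other 3 control eyes were above all lesions. Its level was 1.27-fold below that of control eyes in *RBS* lesions (log2 difference -0.35, SE 0.121, adjusted *p* = 0.0383). This call was fragile, since it was lost when *RBS* lesion 2, 3 or 5 or control eye 1, 2 or 3 was left out, with a log2 difference between -0.43 and -0.28 over all 9 ways of leaving out a sample. All Shh-MBs lay above all *RBS* lesions (log2 difference of *RBS* lesions -0.36, SE 0.141, adjusted *p* = 0.0574), a difference that passed under all 3 other scalings, and Shh-MBs and control eyes overlapped (means 258 ± 37.7, SD, n = 3, and 255 ± 28.6, SD, n = 4; log2 difference 0.01, SE 0.146, adjusted *p* = 0.952), though on centring the level in Shh-MBs was called higher (0.68, adjusted *p* = 0.00978). Over the 12 samples *Cdkn2c* and *Cdkn2d* had a Pearson *r* of 0.83, and their deviations from the group means had an *r* of 0.81. With log2 depth those of *Cdkn2c* had an *r* of -0.62 and those of *Cdkn2d* of -0.46, and the part of depth was not tested. These points share libraries and the scaling factor of each sample, and the value is given as a description.

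*Cdkn2b*, which encodes p15, a known target of TGF-beta signaling through SMAD factors, was the 1 inhibitor called higher when *RBS* lesions were compared with control eyes. The control eyes had 8.75, 8.47, 9.91 and 11.5. In the *RBS* lesions the signal was 33.3, 18.7, 27.7, 24.2 and 27.9. Every lesion was above every control eye. The difference was 2.54-fold (log2 difference 1.34, SE 0.165, adjusted *p* = 0.000168), with means of 26.4 ± 5.37 (SD, n = 5) and 9.67 ± 1.40 (SD, n = 4). These are low counts, 7.45 to 11.1 above background for control eyes and 20.04 to 31.4 for *RBS* lesions. With values under 20 set to 20 the log2 difference was 0.39 (adjusted *p* = 0.0450). Shh-MBs were spread widely, at 24.9, 8.03 and 4.03, so that Shh-MB 1 lay among the *RBS* lesions and the other two below them. *RBS* lesions exceeded Shh-MBs by 1.35 on the log2 scale (SE 0.475, adjusted *p* = 0.0377), but the call was lost without Shh-MB 2 or 3 or *RBS* lesion 1, 3, 4 or 5, and the log2 difference ran from 0.82 without Shh-MB 3 to 1.998 without Shh-MB 1. It also lost the call under all 3 other scalings. Between Shh-MBs and control eyes the log2 difference was -0.01 (SE 0.520, adjusted *p* = 0.994).

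*Cdkn2a*, the neighbor of *Cdkn2b* that encodes p16 and the p53 activator p19Arf, was hardly detected. It was at the lowest value of the sample in 2 of 4 control eyes, 4 of 5 *RBS* lesions and 1 of 3 Shh-MBs, and its highest value anywhere was 6.24 counts above background, in Shh-MB 1. Signals were 1.17, 3.403, 5.66 and 1.04 in control eyes, 1.64, 1, 1, 1.26 and 1 in *RBS* lesions and 6.99, 1 and 3.18 in Shh-MBs, with overlap between all groups. Adjusted limma *p*-values were 0.149, 0.0743 and 0.785 for *RBS* lesions against control eyes, *RBS* lesions against Shh-MBs and Shh-MBs against control eyes. The log2 difference of *RBS* lesions from Shh-MBs, -0.90, passed under all 3 other scalings (-1.75 on centring each sample on its median, adjusted *p* = 0.00143) and without Shh-MB 2 (-1.41, adjusted *p* = 0.00282), and that from control eyes, -0.64, passed without control eye 4 (-0.88, adjusted *p* = 0.0496). All of these rest on the few counts given above.

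*Cdkn1c*, an imprinted gene that encodes p57, separated the eyes from the tumors. Its signal was 2834, 2041, 2860 and 4160 in the control eyes. The *RBS* lesions had 2925, 2801, 2638, 2420 and 2376. In the Shh-MBs it was 99.9, 92.3 and 124. All lesions lay within the range of the control eyes, and all Shh-MBs lay far below both. *RBS* lesions had a 24.9-fold higher level than Shh-MBs (log2 difference 4.64, SE 0.131, adjusted *p* = 1.57e-07), and Shh-MBs were 27.3-fold lower than control eyes (log2 difference -4.77, SE 0.247, adjusted *p* = 1.90e-05). *RBS* lesions and control eyes had means of 2632 ± 237 (SD, n = 5) and 2974 ± 877 (SD, n = 4) and a log2 difference of -0.13 (SE 0.185, adjusted *p* = 0.585), whose sign rested on control eye 4 (0.04 without it). Group membership accounted for 98.6% of the variance of *Cdkn1c* on the log2 scale, the highest share among the 7 genes.

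Markers of several cell types other than neural cells differed between eyes and tumors as *Cdkn1c* did. Of 13 mesenchyme markers 7 were on the panel, none at the lowest value in all samples of a group, and their summed signal ran from 25546 to 57829 over the control eyes, from 19843 to 36410 over the *RBS* lesions and from 1475 to 2099 over the Shh-MBs. Compared with Shh-MBs, 6 of the 7 were higher and 1 lower in *RBS* lesions, where 48.1% of all genes were higher. All 5 surface epithelium markers (summed signal of 14.1 to 21.9 over the Shh-MBs, with the calmodulin-like gene *Calml3* at the lowest value in each) and all 3 endothelium markers (129 to 235) were higher in *RBS* lesions as well, with medians of 3.96 and 1.80. Under each of the 3 other scalings 2 of the 3 endothelium markers were higher, with a median of 0.96 on centring. Compared with control eyes, 2 of the 3 were lower in Shh-MBs. Among the control eyes the mesenchyme sum and *Cdkn1c* were both highest in control eye 4 (57829 and 4160) and lowest in control eye 2 (25546 and 2041). Over the 12 samples the deviations of *Cdkn1c* and of the mesenchyme sum from their group means had a Pearson *r* of 0.81. The part of these cell types in the *Cdkn1c* difference was not tested. The genes with a pattern most like *Cdkn1c* over the 12 samples were *Col3a1*, a collagen of connective tissue (*r* = 0.99), *Gpc4*, a cell surface glypican (*r* = 0.99), and *Wnt11*, a Wnt ligand (*r* = 0.99). All were low in Shh-MBs, with *Col3a1* at a mean of 526 against 13597 in control eyes and 13320 in *RBS* lesions. *Wnt11* was hardly detected in Shh-MBs, at a mean of 1.04 against 63.3 in control eyes and 52.9 in *RBS* lesions. Its deviations from the group means had an *r* of 0.58 with those of *Cdkn1c*.

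*Cdkn1b* encodes p27. Its signal was 2304, 2303, 2073 and 2036 in control eyes, 1578, 1993, 1881, 2223 and 1889 in *RBS* lesions and 2589, 3138 and 3048 in Shh-MBs. All Shh-MBs were above all eyes, whereas lesions and control eyes overlapped. *RBS* lesions were 1.53-fold lower than Shh-MBs (log2 difference -0.62, SE 0.134, adjusted *p* = 0.00402), and the size depended on the scaling, with -1.46 on centring, -0.99 on scaling to the total and -0.68 with quantile normalization. Compared with control eyes, *RBS* lesions had a log2 difference of -0.19 (SE 0.110, adjusted *p* = 0.177), which passed when samples were centred on their median (-0.37, adjusted *p* = 0.0307). Shh-MBs were 1.34-fold higher than control eyes (log2 difference 0.42, SE 0.112, adjusted *p* = 0.0232), a call lost without Shh-MB 2 or 3 or control eye 3 or 4, with the methods' *t*-test under Benjamini-Hochberg adjustment (adjusted *p* = 0.0632) and with the *Uty* term (adjusted *p* = 0.114). The genes most like *Cdkn1b* in pattern were *Atm*, a kinase of the DNA damage response (*r* = 0.94), *Mycn*, a Myc factor induced by Hedgehog signaling (*r* = 0.93), and *Fancf*, a Fanconi anemia gene (*r* = 0.92).

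*Cdkn1a*, the p53 target that encodes p21, did not pass the test in any of the 3 comparisons as fitted here. The control eyes had 200, 158, 233 and 242, the *RBS* lesions 327, 185, 222.5, 260 and 201 and the Shh-MBs 185, 164 and 158. Lesions and control eyes overlapped, and all *RBS* lesions were above all Shh-MBs, the closest pair at 185.5 and 185.0. Log2 differences were 0.19 against control eyes (SE 0.192, adjusted *p* = 0.460), 0.47 against Shh-MBs (SE 0.191, adjusted *p* = 0.0622) and -0.28 for Shh-MBs against control eyes (adjusted *p* = 0.237). The difference from Shh-MBs passed in 4 alternatives, without *RBS* lesion 2 (0.56, adjusted *p* = 0.0377), with limma's trend and robust settings (adjusted *p* = 0.0411), with the filter on a mean under 20 (adjusted *p* = 0.0433) and with the *Uty* term (0.67, adjusted *p* = 0.0374), and turned to -0.37 on centring. The highest value came from *RBS* lesion 1, the sample of lowest depth, and over the 12 samples the deviations of *Cdkn1a* and of log2 depth from their group means had a Pearson *r* of -0.84. The part of depth in these values was not tested. Nearest to *Cdkn1a* in pattern were *Fzd10*, a Wnt receptor (*r* = 0.92), *Ikbkg*, a subunit of the kinase upstream of NF-kappaB (*r* = 0.91), and *Eef1g*, a translation elongation factor (*r* = 0.81).

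**Figure D2:**
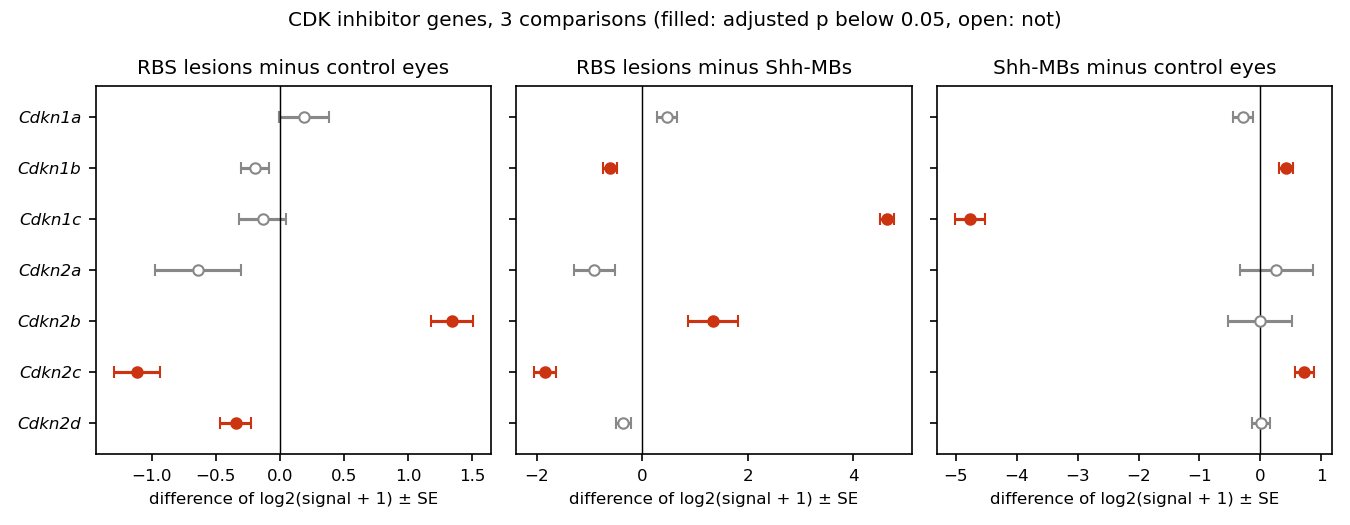
Difference of log2(signal + 1) with SE for the 7 CDK inhibitor genes in 3 comparisons. Filled points have an adjusted p below 0.05 (limma). Against control eyes, RBS lesions show Cdkn2b at 1.34, Cdkn2c at -1.11 and Cdkn2d at -0.35, and Cdkn1c stands out in both comparisons with Shh-MBs (4.64 and -4.77).

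The scale matters for the comparisons with Shh-MBs. With the deposited scaling, the median log2 difference of all 770 genes was 0.17 for *RBS* lesions against control eyes, 0.53 against Shh-MBs and -0.22 for Shh-MBs against control eyes, and the medians of the 7 inhibitors were -0.19, -0.36 and 0.01. Centring each sample on its median moved these medians of all genes to -0.01, -0.32 and 0.44. Among called genes, the share that was higher was 64.5% for *RBS* lesions against control eyes, 50% after centring on the median and 50.8% after quantile normalization. It was 61.6% when scaled to the sum of all but the 3 most abundant genes. Against Shh-MBs the share was 79.1%, but 36.2% after centring, 46.2% after quantile normalization and 62.5% when scaled to the sum of all but the 3 most abundant genes. For Shh-MBs against control eyes it was 23.4%, and 69.1%, 59.9% and 47.5% with the same alternatives. The directions of *Cdkn1b*, *Cdkn1c* and *Cdkn2c* held in all of these, and those of *Cdkn1a* and *Cdkn2b* in comparisons with Shh-MBs did not. On centring the log2 differences were -2.69 for *Cdkn2c* and 3.79 for *Cdkn1c* in *RBS* lesions against Shh-MBs and 1.39, -4.10 and 1.09 for *Cdkn2c*, *Cdkn1c* and *Cdkn1b* in Shh-MBs against control eyes.

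The genes most like *Cdkn2c* in pattern over the 12 samples were *Rfc4*, a subunit of the clamp loader (*r* = 0.98), *Pcna*, the sliding clamp itself (*r* = 0.98), and *Rpa3*, a subunit of the single-strand binding complex (*r* = 0.97). *Pcna* had mean signals of 4339 in control eyes, 2024 in *RBS* lesions and 5525 in Shh-MBs, and its deviations from the group means had an *r* of 0.89 with those of *Cdkn2c*. Within the *RBS* lesions both were highest in lesion 1 (*Pcna* 2372, *Cdkn2c* 294) and lowest in lesion 5 (1827 and 160). Among control eyes both were lowest in control eye 4 (3665 and 382). For *Cdkn2d* the nearest genes were *Mutyh*, a DNA repair glycosylase (*r* = 0.93), *Ppia*, a prolyl isomerase (*r* = 0.88), and *Ppp3ca*, the calcineurin catalytic subunit (*r* = 0.85). These correlations describe 12 samples in 3 groups that share the scaling.

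**Figure D3:**
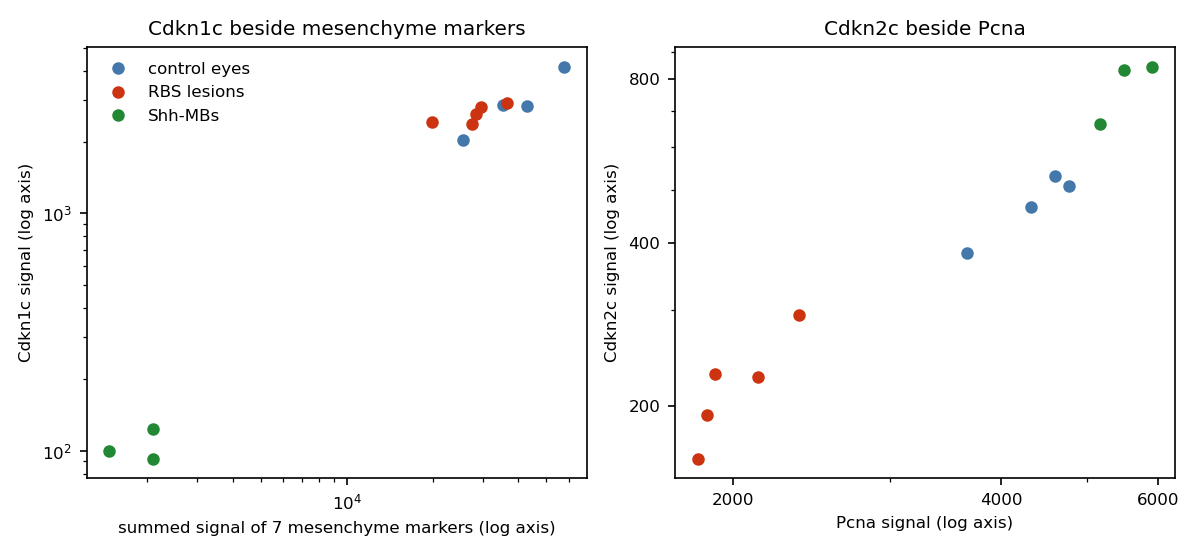
Left, Cdkn1c signal against the summed signal of 7 mesenchyme markers, and right, Cdkn2c signal against Pcna signal, all on log axes, with 1 point per sample. Shh-MBs are apart from both kinds of eye on the left, with sums of 1475 to 2099, and on the right the groups follow each other from RBS lesions over control eyes to Shh-MBs.

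Of 27 S phase and mitosis genes listed 17 were on the panel, and 13 fell, none rose and 4 did not pass in *RBS* lesions compared with control eyes, with a median log2 difference of -1.10 against 0.17 for all genes, of which 33.0% rose and 18.2% fell. The largest falls were those of *Cdc6*, a replication licensing factor (-1.94, adjusted *p* = 0.00215), and *Cdc25c*, a phosphatase for mitotic entry (-1.55, adjusted *p* = 7.59e-05). *Cdc6* had low means, 11.6 in *RBS* lesions and 42.8 in control eyes. Compared with Shh-MBs 12 of 17 fell and none rose, where 12.7% of all genes fell and 48.1% rose, with a median of -1.23, led by *Mcm5* (-1.69, adjusted *p* = 0.000992), a part of the replicative helicase, and the spindle checkpoint kinase *Ttk* (-1.65, adjusted *p* = 4.04e-05). Between Shh-MBs and control eyes, where *Cdkn2c* was called, most of the list was not. *Rfc4* was higher (0.54, adjusted *p* = 0.0241), *Cdc6* (-0.56, adjusted *p* = 0.0159) and *Cdc25b* (-0.55, adjusted *p* = 0.00450) were lower and 14 did not pass, beside 9.61% of all genes higher and 31.4% lower. After centring on the median, 13 of the 17 were instead higher in Shh-MBs than in control eyes and none lower, where 311 of all 770 genes were higher and 139 lower.

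The cyclins and kinases that the inhibitors bind were all on the panel (10 of 10). In *RBS* lesions compared with control eyes, 4 fell, none rose and 6 did not pass, with a median log2 difference of -0.23, beside 18.2% of all genes that fell and 33.0% that rose. *Ccnd1*, the D-type cyclin of the retina, fell by 2.91 on the log2 scale (adjusted *p* = 3.48e-06), from a mean signal of 13870 in control eyes to 1856. The kinases that the INK4 proteins hold, *Cdk4* (-0.13, adjusted *p* = 0.236) and *Cdk6* (-0.03, adjusted *p* = 0.854), did not pass, nor did *Ccnd2* (0.36, adjusted *p* = 0.106) and *Ccnd3* (0.08, adjusted *p* = 0.598). After centring on the median 6 of the 10 were lower, beside 177 of all 770 genes, and *Cdk4* was among the 6 (-0.31, adjusted *p* = 0.0260). On the Cip/Kip side, *Cdk2* (-0.65, adjusted *p* = 0.00301), *Ccna2* (-1.35, adjusted *p* = 3.63e-05) and *Ccne2* (-0.90, adjusted *p* = 0.000522) were lower, while *Ccne1* had a log2 difference of -0.32 (adjusted *p* = 0.171) and passed on centring (-0.50, adjusted *p* = 0.0491).

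Compared with Shh-MBs, 6 of these 10 were lower in *RBS* lesions, 1 higher and 3 did not pass, with a median of -0.91 against 0.53 for all genes, of which 12.7% were lower and 48.1% higher. On centring 9 of the 10 were lower, beside 319 of all 770 genes lower and 181 higher. *Cdk6* (-2.19, adjusted *p* = 4.73e-06) and *Ccnd2*, the D-type cyclin of granule cell precursors (-1.68, adjusted *p* = 1.46e-05), had the largest falls, and *Cdk4* was also lower (-0.48, adjusted *p* = 0.00276). *Ccnd3* was higher (0.94, adjusted *p* = 0.000157), though not after centring on the median (0.10, adjusted *p* = 0.460). *Ccnd1* had similar means in both, 1856 and 2200 (-0.27, adjusted *p* = 0.236). In Shh-MBs compared with control eyes 5 of the 10 were higher, among them *Cdk6* (2.16, adjusted *p* = 6.49e-05), *Ccna1* (2.10, adjusted *p* = 0.0223) and *Ccnd2* (2.04, adjusted *p* = 0.000374), and 2 lower, *Ccnd1* (-2.65, adjusted *p* = 1.99e-05) and *Ccnd3* (-0.86, adjusted *p* = 0.00570), with a median of 0.29, while 9.61% of all genes were higher and 31.4% lower. *Ccna1* rests on low signal, with means of 22.9 in Shh-MBs and 5.21 in control eyes. On centring 8 were higher and 1 lower, with a median of 0.96, and *Ccnd3* did not pass (-0.20, adjusted *p* = 0.275). Of all 770 genes 311 were then higher and 139 lower, with a median of 0.44.

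**Figure D4:**
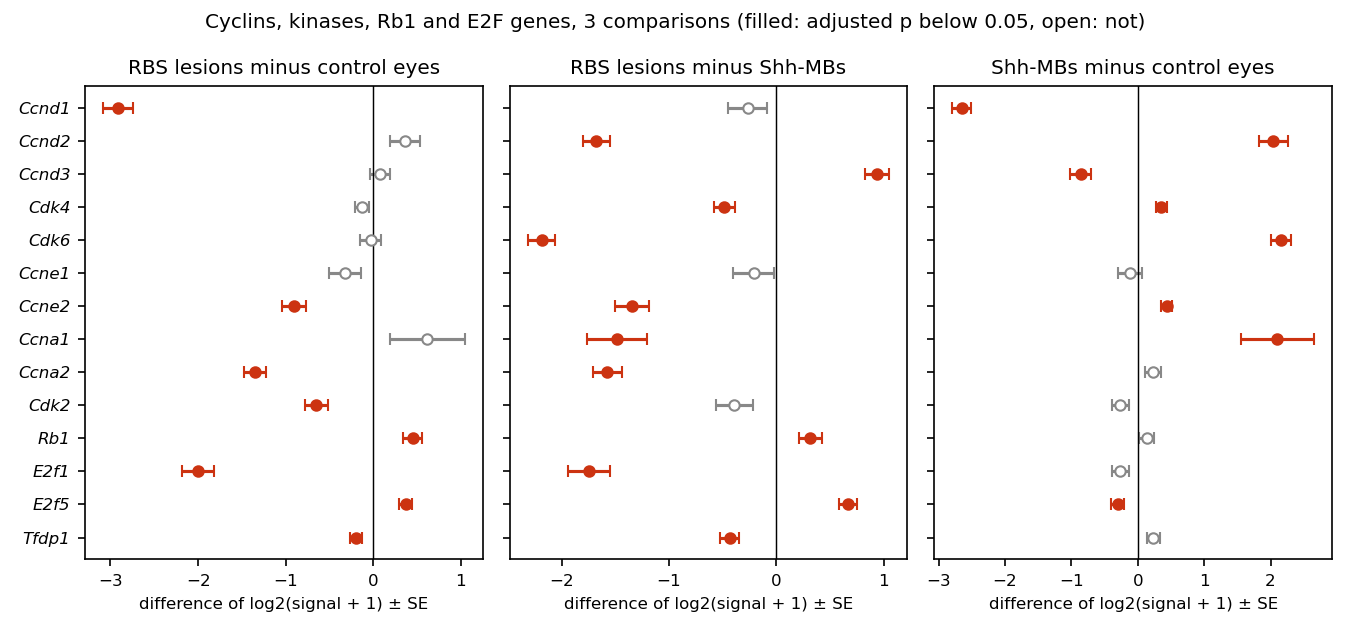
Difference of log2(signal + 1) with SE for the cyclins and kinases bound by the inhibitors and for the panel's pocket protein and E2F genes, in 3 comparisons. Filled points have an adjusted p below 0.05 (limma). Ccnd1 is low in RBS lesions (-2.91) and in Shh-MBs (-2.65) compared with control eyes, and Cdk6 and Ccnd2 are high in Shh-MBs.

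Downstream, 4 of 9 pocket protein and E2F genes were on the panel. *E2f1*, an activator of S phase genes, had a lower level in *RBS* lesions than control eyes (-2.004, adjusted *p* = 3.44e-05) and than in Shh-MBs (-1.74, adjusted *p* = 0.000114). *Rb1*, which encodes the retinoblastoma protein, was higher than in control eyes (0.45, adjusted *p* = 0.00590) and than in Shh-MBs (0.32, adjusted *p* = 0.0309), but the first call was lost (0.27, adjusted *p* = 0.0731) and the second turned (-0.53) on centring. The repressive factor *E2f5* was higher than in control eyes (0.37, adjusted *p* = 0.00352), which centring also took below the threshold (0.19, adjusted *p* = 0.123), and *Tfdp1*, the dimer partner of E2Fs, was lower (-0.20, adjusted *p* = 0.0435).

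Of 15 genes of the p53 pathway, which holds regulators and targets of p53 beside p21, 9 were measured. *Trp53* (-0.08, adjusted *p* = 0.598) and its inhibitor *Mdm2* (0.15, adjusted *p* = 0.276) did not pass between *RBS* lesions and control eyes. In that comparison 2 rose, the stress gene *Gadd45g* (1.36, adjusted *p* = 1.84e-05) and the apoptosis effector *Bax* (0.61, adjusted *p* = 0.00882), and 4 fell, most of all the stress gene *Gadd45a* (-1.81, adjusted *p* = 5.14e-06) and *Thbs1*, an inhibitor of vessel growth (-0.96, adjusted *p* = 0.00404), with a median of -0.08 over the 9, while 33.0% of all genes rose and 18.2% fell. *Trp53* was lower in *RBS* lesions than in Shh-MBs (-1.03, adjusted *p* = 0.000157), where *Cdkn1a* did not pass. *Mdm2* was 0.40 higher there (adjusted *p* = 0.00892) and 0.45 lower after centring.

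The TGF-beta and SMAD genes known to act on p15 were measured in full (8 of 8). Compared with control eyes none rose in *RBS* lesions and 2 of 8 fell, the ligands *Tgfb2* (-0.61, adjusted *p* = 0.00226) and *Tgfb3* (-0.38, adjusted *p* = 0.0326), with a median of -0.02, while 33.0% of all genes rose and 18.2% fell. The number lower was 3 on centring and 5 with quantile normalization, beside 177 and 179 of all 770 genes. Compared with Shh-MBs 5 of 8 were higher, where 48.1% of all genes were, led by *Tgfb3* (2.37, adjusted *p* = 1.41e-05) and the receptor *Tgfbr2* (1.42, adjusted *p* = 5.28e-05), and *Smad3* was lower (-0.59, adjusted *p* = 0.00125). The median of 1.03 became 0.19 on centring, with 4 higher and 3 lower. Of all 770 genes 181 were then higher and 319 lower, with a median of -0.32.

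For p27, whose protein is marked for decay by the SCF ligase with SKP2, 4 of 6 ligase genes were measured. *Skp2* was lower in *RBS* lesions than both in control eyes (-0.57, adjusted *p* = 0.00256) and in Shh-MBs (-0.80, adjusted *p* = 0.000256). The core subunits *Rbx1* (0.64, adjusted *p* = 0.000630) and *Skp1a* (0.38, adjusted *p* = 0.00352) were higher than in control eyes, *Skp1a* not after centring (0.20, adjusted *p* = 0.116). *Cul1*, also a core subunit, did not pass (0.002, adjusted *p* = 0.989). The panel counts RNA and gives no protein levels. *Mycn*, 1 of 2 Myc genes measured, was lower in *RBS* lesions than both in control eyes (-0.87, adjusted *p* = 0.000250) and in Shh-MBs (-2.36, adjusted *p* = 3.37e-06). The other, *Myc*, did not pass against control eyes (0.18, adjusted *p* = 0.526) and was lower than in Shh-MBs (-0.75, adjusted *p* = 0.00176). *Ezh2*, the Polycomb methyltransferase known to silence the *Cdkn2a* and *Cdkn2b* locus, was lower than in control eyes (-0.62, adjusted *p* = 0.000894), and the demethylase *Kdm6a* did not pass (-0.22, adjusted *p* = 0.601).

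Markers of other cell types were compared between *RBS* lesions and control eyes, where 33.0% of all genes were called higher and 18.2% lower. The summed signal of 6 neuron markers (of 14 listed) ran from 679 to 825 over the control eyes and from 2421 to 3189 over the *RBS* lesions, with 5 of 6 higher. That of 3 endothelium markers (of 7) ran from 1789 to 2259 and from 695 to 988, with 1 of 3 lower, and that of 9 blood and immune markers (of 14) from 114 to 176 and from 213 to 284, with 3 of 9 higher and the interleukin receptor chain *Il2rb* at the lowest value in all lesions. Sums of 5 surface epithelium markers (of 9) overlapped at 301 to 607 and 456 to 910, with 3 of 5 higher. Mesenchyme markers had 2 of 7 lower and none higher (median -0.44), with 4 of 7 lower after centring, where 177 of all 770 genes were. Of the granule precursor list 2 of 3 genes were lower (median -0.67), *Mycn* among them. The part of these cell types in the differences of *Cdkn2b*, *Cdkn2c* and *Cdkn2d* was not tested.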

How the data were processed

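RNA of 12 samples was hybridized to the nCounter PanCancer Pathways panel for mouse and counted. The authors normalized the counts to reference genes with nSolver, and the deposited signal is linear and normalized, with a background level taken off and a floor at the lowest value of each sample. The background setting and the reference genes are not given in the sources used here. Low values lie on even steps, and total signal divided by the step was taken as depth.

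The log2 of the signal was taken after adding a pseudocount of 1, without a filter. Each pair of groups was fitted with limma 3.58.1 in R 4.3.3 (eBayes, two-sided, Benjamini-Hochberg over 770 genes, threshold 0.05), and the steps were tested on simulated data. Figures were drawn with matplotlib 3.10.9.

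The members and lists were chosen with earlier results of these data known. Named were the 7 inhibitors, the 3 genes with the highest Pearson *r* to each member of mean signal of at least 20, the main cyclins, kinases and their regulators, and from each list the 2 largest rises and falls past the threshold. Some of these are counted only. Alternatives were the methods' *t*-test (step-down Bonferroni or Benjamini-Hochberg), limma with trend and robust settings or all 12 samples, 3 other scalings, a pseudocount of 5, a limit of 20, a replicate block, a term for *Uty* above 100 and leaving out each sample in turn.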

Additional observations from a re-analysis of the deposited data

How the results depend on the processing

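With step-down Bonferroni adjustment of the methods' *t*-test, the number of genes called was 72 for *RBS* lesions against control eyes, 80 for *RBS* lesions against Shh-MBs and 36 for Shh-MBs against control eyes, of which 0, 1 and 1 were inhibitors. The 2 inhibitors were *Cdkn2c* (*RBS* lesions against Shh-MBs) and *Cdkn1c* (Shh-MBs against control eyes). *Cdkn2b* and *Cdkn2c* between *RBS* lesions and control eyes, and *Cdkn1b*, *Cdkn1c* and *Cdkn2c* between *RBS* lesions and Shh-MBs, kept direction and call in every other alternative that gave them a value. *Cdkn2b* was left out by the filter on a mean under 20. A term for *Uty* left 182 genes and 1 inhibitor called between Shh-MBs and control eyes, and turned *Cdkn2a* (-0.71) and *Cdkn2d* (-0.070).

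Samples with the same number did not deviate together (correlations of -0.148 to 0.188 between *RBS* lesions and control eyes, -0.0173 to 0.0844 and -0.0811 to -0.0169 in the other comparisons), so the numbers do not pair them. With a replicate block, 1 inhibitor was called between Shh-MBs and control eyes, the calls of *Cdkn2c* (0.63, adjusted *p* = 0.0660) and *Cdkn1b* (0.39, adjusted *p* = 0.128) being lost, *Cdkn2b* (0.075) and *Cdkn2d* (-0.071) turned there, and *Cdkn2d* was not called between *RBS* lesions and control eyes (adjusted *p* = 0.176). The block also ended the call of *Cdkn2b* between *RBS* lesions and Shh-MBs (1.35, adjusted *p* = 0.0819).

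For *RBS* lesions against Shh-MBs, *Cdkn1a* turned to -0.37 on centring and -0.078 with quantile normalization, which gave *Cdkn2b* -0.093. For Shh-MBs against control eyes, *Cdkn1a* turned to 0.38, 0.099 and 0.027 on centring, quantile normalization and scaling to the total, and *Cdkn2b* to 0.66, 1.01 and 0.27, to 0.057 with a pseudocount of 5 and to 0.11 with values under 20 set to 20. None of these turned values was past the threshold. Leaving out each sample in turn gave -0.30 to 0.042 for *Cdkn1c* in *RBS* lesions against control eyes and, for Shh-MBs against control eyes, -0.22 to 0.77 for *Cdkn2a*, -0.65 to 0.53 for *Cdkn2b* and -0.10 to 0.096 for *Cdkn2d*. Of the 15 genes nearest in pattern, 8 were also found with Spearman's rho and 9 after centring. The causes were not tested. Depth limits *Cdkn2a* and *Cdkn2b*, which rest on few counts.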

Other observations

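Among the 7 inhibitors, the share of the variance of log2 values that lay between groups was 91.5% for *Cdkn2c*, 78.1% for *Cdkn1b*, 61.4% for *Cdkn2b*, 55.2% for *Cdkn2d*, 38.2% for *Cdkn1a* and 29.9% for *Cdkn2a*. Within groups, the deviations of *Cdkn1a* and *Cdkn1b*, both Cip/Kip genes, ran in opposite directions (Pearson *r* of -0.59 over 12 samples), as did those of *Cdkn1b* and *Cdkn2b* (-0.63). The neighbors *Cdkn2a* and *Cdkn2b* had an *r* of 0.39, which rests on few counts of both genes. The deviations of log2 depth had an *r* of -0.84 with those of *Cdkn1a*, 0.50 with *Cdkn1b* and -0.50 with *Cdkn2b*, and the part of depth in the correlations between genes was not tested. These values come from samples that share a scaling factor for all genes and are given as a description.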
